A study of Mus musculus with 4 samples.

Results

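Death receptors and the necroptosis genes downstream of them were examined as a list of 10 genes, Fas, Tnfrsf1a, Tnfrsf1b, Tnfrsf10b, Tnfrsf21, Fadd, Cflar, Ripk1, Ripk3 and Mlkl. They were chosen by name and make up 10 of the 52636 Ensembl genes with a value in each library. RNA was measured by bulk RNA-seq in cells of the corpus callosum, the large white matter tract of the forebrain, sorted into dying (AnnexinV-positive) and living (AnnexinV-negative) cells. Annexin V binds phosphatidylserine that a dying cell exposes on its surface. Each group had 2 libraries, and every library in both groups came from Mertk_KO mice fed chow with 0.2% cuprizone, a copper chelator that kills oligodendrocytes, for 4 weeks. Mertk encodes a receptor through which phagocytes take up dying cells. No wild-type, untreated or other time point library was analysed here, and the labels give neither the kind of knockout allele nor the age of the mice. The labels do not tie replicates to animals; the p-values therefore rest on the spread of these libraries alone, which may be technical.

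Death receptors are members of the TNF receptor superfamily with a cytoplasmic death domain. When TNF, Fas ligand or TRAIL binds, the adaptor FADD and the kinase RIPK1 gather at the receptor or in a later complex. Caspase-8 can start apoptosis there. The caspase-8 homologue encoded by Cflar, c-FLIP, restrains that step. Where caspase-8 is not active, RIPK1 and RIPK3 join through a shared interaction motif and RIPK3 phosphorylates MLKL, which opens the plasma membrane; this is necroptosis. In the brain, TNF made by microglia acts on glia through both TNF receptors, and RIPK1 and its partners have been studied in demyelination.

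In units of 1000 reads, libraries held about 67448 and 60136 in AnnexinV-positive cells and 50524 and 43244 in AnnexinV-negative cells, recovered from the deposited RPKM values (reads per kilobase of gene, scaled per library). On the deposited scale, marker genes of microglia and of oligodendrocytes moved with the sort. On that scale 30.8% of all genes tested were called higher and 9.26% lower. All 14 markers of homeostatic microglia were called higher, with a summed RPKM of 5684 and 5616 in AnnexinV-positive against 2197 and 2701 in AnnexinV-negative libraries. With total reads made equal 2 of the 14 were called higher, and with a fixed sum of values (the TPM scale) 0 were. At an unadjusted limma p under 0.05 these numbers were 12 and 3. The marker counts and values that follow are again on the deposited scale. All 15 markers of mature oligodendrocytes fell, with a summed RPKM of 103 and 87.9 in AnnexinV-positive against 1122 and 631 in AnnexinV-negative libraries. Siglech, a microglial lectin, had a log2 fold change of 1.26, and Mobp, a myelin protein gene, of -6.01. Members called lower numbered 8 of 10 tested for astrocytes, 6 of 7 for endothelial cells, 4 of 4 for mural cells or fibroblasts, 5 of 6 for oligodendrocyte precursors, 2 of 3 for neurons, 2 of 2 for monocytes or neutrophils and 1 of 2 for T or NK cells, while 3 of 3 tested border macrophage markers were higher. No marker on these lists was at 0 in all 4 libraries. The part of cell composition in the results below was not tested, and in bulk samples fewer cells of a type and less RNA per cell cannot be told apart.

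On the deposited scale, RNA of most of the death receptor and necroptosis genes was higher in dying cells. Fewer of them were called higher under each other scaling given below. The deposited values of a library summed to 200348 and 217768 in AnnexinV-positive and to 122944 and 120680 in AnnexinV-negative libraries. The counts in this paragraph are on the deposited scale. Of the 10 members, 7 reached an RPKM of at least 1 in 2 libraries (in fact in all 4) and were tested, and 6 of these 7 rose: Tnfrsf1a, Tnfrsf1b, Tnfrsf21, Cflar, Ripk1 and Ripk3. None of the 7 was called lower by limma, adjusted or at an unadjusted p under 0.05. Over all 10927 genes tested with limma, 30.8% were called higher and 9.26% lower (Benjamini-Hochberg adjusted p under 0.05). Both AnnexinV-positive libraries lay above both AnnexinV-negative libraries for 6 of the 7 members and for 60.9% of all genes tested. The median log2 fold change was 1.19 over the 7 members and 0.45 over all genes tested. Without AnnexinV-positive replicate 1 or 2 the median over the 7 members was 1.18 or 1.19, against 0.48 or 0.41 over all genes tested. Without AnnexinV-negative replicate 1 or 2 it was 0.97 or 1.32, against 0.44 or 0.42 over all genes tested. The calls of Tnfrsf21 and Ripk1 depended on single libraries, as given below. Fas did not pass the test, and Fadd, Mlkl and Tnfrsf10b lay below the minimum and have values but no test in that fit. Just inside the minimum was Fas, with a lowest value of 1.09, and just outside was Fadd, with a highest value of 0.911.

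**Figure D1:**
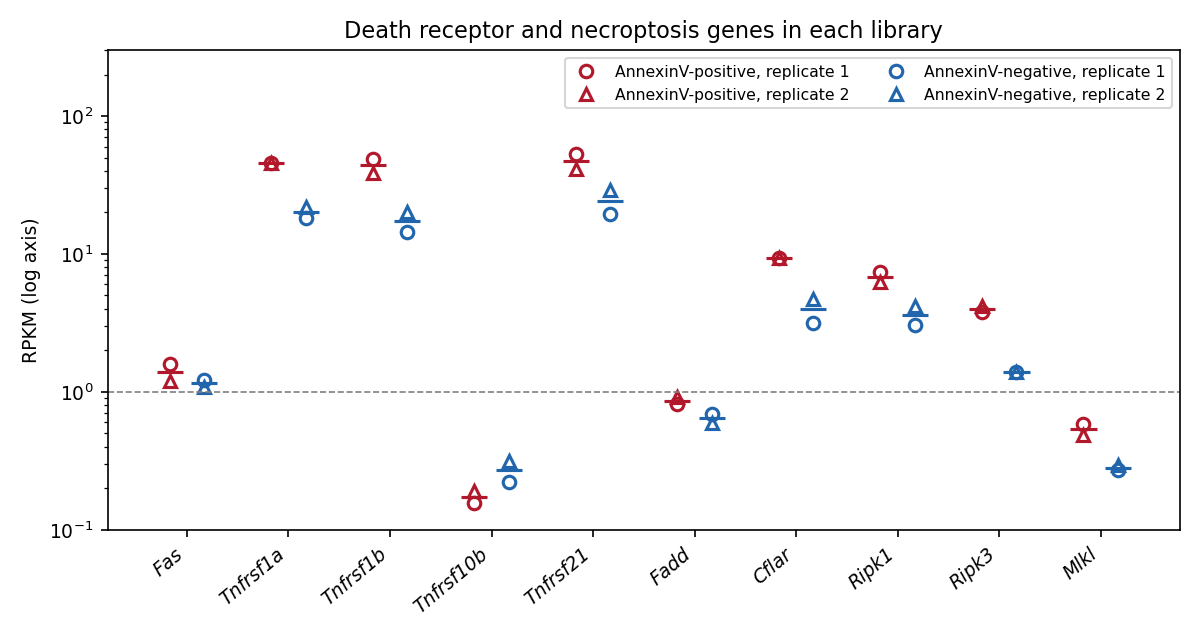
RPKM (log axis) of each member in every library; circles are replicate 1, triangles replicate 2, short lines the mean of the 2 libraries, and the dashed line marks an RPKM of 1. Of the members above 1, 6 have both AnnexinV-positive libraries above both AnnexinV-negative ones, Fas sits above 1 with overlapping groups, and Fadd, Mlkl and Tnfrsf10b lie below 1.

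Among the receptors, those for TNF were abundant. Tnfrsf1a, the death domain receptor TNFR1 (ENSMUSG00000030341, chromosome 6, 125349362 to 125362484, plus strand, GRCm38), had an RPKM of 45.6 and 45.4 in AnnexinV-positive libraries, against 18.2 and 21.9 in AnnexinV-negative libraries. The groups did not overlap, and the AnnexinV-positive pair was nearly equal. Its log2 fold change was 1.19 (SE 0.18, limma adjusted p 0.00447). Tnfrsf1b, which encodes TNFR2, a receptor with no death domain that signals to NF-kB (ENSMUSG00000028599, chromosome 4, 145213463 to 145246870, minus strand), had an RPKM of 48.8 and 38.9 in AnnexinV-positive against 14.3 and 20.1 in AnnexinV-negative libraries. It too separated the groups, with a wider spread inside each, and its log2 fold change was 1.35 (SE 0.23, limma adjusted p 0.00591).

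Tnfrsf21 encodes the death domain receptor DR6 (ENSMUSG00000023915, chromosome 17, 43016555 to 43089189, plus strand). Its RPKM was 53.4 and 41.5 in AnnexinV-positive and 19.5 and 28.8 in AnnexinV-negative libraries (log2 fold change 0.99, SE 0.24, limma adjusted p 0.0200). The lower AnnexinV-positive library still lay above the higher AnnexinV-negative one. Without AnnexinV-positive replicate 1 it lost its call (log2 fold change 0.80, limma adjusted p 0.0891), where a single AnnexinV-positive library is assumed to vary like the others.

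Fas and the TRAIL receptor stood at much lower levels. Fas, the receptor for Fas ligand (ENSMUSG00000024778, chromosome 19, 34290666 to 34327772, plus strand), had an RPKM of 1.58 and 1.19 in AnnexinV-positive against 1.21 and 1.09 in AnnexinV-negative libraries. The groups overlapped, since AnnexinV-positive replicate 2 lay below AnnexinV-negative replicate 1, and the difference of 0.24 on the log2 scale (SE 0.26, limma adjusted p 0.469) did not pass. Tnfrsf10b, the death receptor for TRAIL in mice (ENSMUSG00000022074, chromosome 14, 69767472 to 69784411, plus strand), was the member that stood lower in dying cells, at an RPKM of 0.156 and 0.190 in AnnexinV-positive against 0.223 and 0.315 in AnnexinV-negative libraries. These values rest on about 84 and 89 reads in AnnexinV-positive and about 146 and 166 in AnnexinV-negative libraries. The exact Poisson 95% intervals of the RPKM, which cover counting error only, were 0.152 to 0.233 in AnnexinV-positive replicate 2 and 0.188 to 0.262 in AnnexinV-negative replicate 1, so these libraries were not told apart at this depth. With no filter on low values, Tnfrsf10b was at -0.43 (limma adjusted p 0.458). That fit called 4 of the 10 members higher, namely Tnfrsf1a, Tnfrsf1b, Cflar and Ripk3, against 4.16% of the 44826 genes in it. Most of those genes lay below the RPKM minimum, unlike the members called. Of the 10927 genes that passed the filter, 30.8% were called higher in the fit with a filter.

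RNA of the proteins that meet at or downstream of the activated receptor differed in level. Fadd, the adaptor that links death domains to caspase-8 (ENSMUSG00000031077, chromosome 7, 144577318 to 144582463, minus strand), had an RPKM of 0.811 and 0.911 in AnnexinV-positive against 0.695 and 0.590 in AnnexinV-negative libraries, from 223 to 326 reads a library. The groups were close but did not overlap, and without a filter its log2 fold change was 0.37 (limma adjusted p 0.387). Fadd shares 239 exonic bases with the antisense gene Faddos, whose reads a library kit without strand cannot separate; Faddos itself was at an RPKM of 0.0672 and 0.0662 in AnnexinV-positive and 0.111 and 0.0882 in AnnexinV-negative libraries. Cflar (ENSMUSG00000026031, chromosome 1, 58711508 to 58758884, plus strand), the brake on caspase-8, had an RPKM of 9.39 and 9.31 in AnnexinV-positive against 3.18 and 4.73 in AnnexinV-negative libraries. It rose by 1.25 on the log2 scale (SE 0.23, adjusted p 0.00770 from limma), with AnnexinV-positive libraries nearly equal to each other.

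Of the necroptosis kinases, Ripk3 had the largest difference among the members. Ripk3 (ENSMUSG00000022221, chromosome 14, 55784995 to 55788865, minus strand) had an RPKM of 3.76 and 4.22 in AnnexinV-positive against 1.386 and 1.398 in AnnexinV-negative libraries (log2 fold change 1.45, SE 0.20, limma adjusted p 0.00352). Both AnnexinV-positive libraries lay far above the closely matched AnnexinV-negative pair. Ripk1 (ENSMUSG00000021408, chromosome 13, 34002363 to 34037147, plus strand), the kinase that acts in survival signalling as well as death, had an RPKM of 7.35 and 6.29 in AnnexinV-positive against 3.04 and 4.22 in AnnexinV-negative libraries. It rose by 0.91 on the log2 scale (SE 0.23, adjusted p 0.0203 from limma), the smallest of the 6 called. This call was lost without AnnexinV-positive replicate 1 (log2 fold change 0.79, adjusted p 0.1001), without AnnexinV-positive replicate 2 (1.02, adjusted p 0.0522) and without AnnexinV-negative replicate 1 (0.68, adjusted p 0.0506; limma). Ripk1 shares exonic bases, 752 in all, with Serpinb6a on the other strand and the pseudogene Gm17084. Serpinb6a was at an RPKM of 4.14 and 5.20 in AnnexinV-positive and 4.20 and 3.90 in AnnexinV-negative libraries, and Gm17084 was listed at 0 in all 4.

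Mlkl, the executor that RIPK3 phosphorylates (ENSMUSG00000012519, chromosome 8, 111311797 to 111338177, minus strand), was scarce in both groups. Its RPKM was 0.581 and 0.487 in AnnexinV-positive against 0.270 and 0.294 in AnnexinV-negative libraries, from about 132 and 97 reads in AnnexinV-positive and about 75 and 66 in AnnexinV-negative libraries. The groups did not overlap, and the exact Poisson intervals of the nearest pair, 0.397 to 0.597 in AnnexinV-positive replicate 2 and 0.229 to 0.376 in AnnexinV-negative replicate 2, were apart. In the fit without a filter its log2 fold change was 0.73 (SE 0.29), with an unadjusted p of 0.0452 and an adjusted p of 0.168 (limma).

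Levels of the members spanned a wide range of RPKM. Tnfrsf21, Tnfrsf1a and Tnfrsf1b led in both groups, at means of 47.4 ± 8.47, 45.5 ± 0.150 and 43.8 ± 7.03 in AnnexinV-positive cells and 24.2 ± 6.60, 20.0 ± 2.61 and 17.2 ± 4.07 in AnnexinV-negative cells (SD, n = 2 each). Ranges of neighbours among these 3 overlapped, so their order is not resolved. Cflar, Ripk1 and Ripk3 followed, at 9.35 ± 0.0605, 6.82 ± 0.752 and 3.99 ± 0.329 in AnnexinV-positive and 3.95 ± 1.09, 3.63 ± 0.830 and 1.39 ± 0.00819 in AnnexinV-negative cells (SD, n = 2 each). Cflar and Ripk1 overlapped in AnnexinV-negative and not in AnnexinV-positive cells, and in AnnexinV-negative cells Ripk3 lay closer to Fas, at 1.15 ± 0.0865 (SD, n = 2), than to Ripk1. Fas and Fadd came next, and Mlkl and Tnfrsf10b last: these last members overlapped in AnnexinV-negative cells, whereas Mlkl lay above Tnfrsf10b in AnnexinV-positive cells.

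The direction of these differences depended on how libraries were made comparable. Over all genes tested, 3364 were called higher and 1012 lower on the deposited scale, or 1749 and 823 without AnnexinV-positive replicate 1 and 1297 and 787 without AnnexinV-positive replicate 2. Centring libraries on the median of these genes gave 1133 and 1184. Equal total reads gave 218 and 1696, the TPM scale (a fixed sum of values) 113 and 2091, and centring libraries on the homeostatic microglia markers 13 and 5623. The median log2 fold change of all genes tested moved accordingly, to 0.13, -0.21, -0.32 and -0.76 in the same order. Of the 7 members, 4 were called higher under median centring (Tnfrsf1a, Tnfrsf1b, Cflar and Ripk3), against 10.4% of all genes tested. With total reads made equal only Ripk3 was called (log2 fold change 0.83, limma adjusted p 0.0364), against 2% of all genes tested called higher. On the TPM scale 0 of 7 were called by limma, against 1.03% of all genes tested called higher. Ripk3 came closest, at 0.73 (limma adjusted p 0.0512). At an unadjusted limma p under 0.05, 6 of the 7 passed under median centring, 4 with total reads made equal and 1 on the TPM scale. Of all genes tested, 3872, 3654 and 3985 did so in either direction, in the same order.

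**Figure D2:**
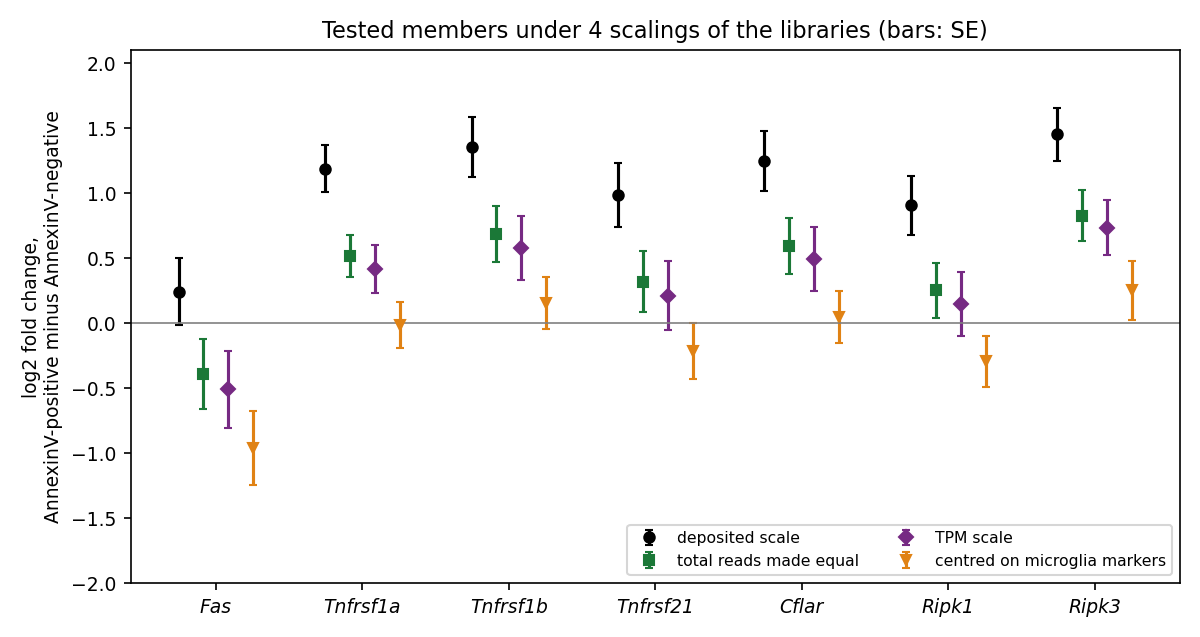
Log2 fold change (AnnexinV-positive minus AnnexinV-negative, limma, bars show the SE) of the 7 tested members under 4 scalings of the libraries. Each scaling applies a single factor per library, so apart from the pseudocount the members shift together by construction. Their order, with Ripk3 highest and Fas lowest, is kept for the same reason. Fas lies below 0 in 3 of the scalings shown.

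Set against the microglia markers, Fas stood apart from the other tested members. Centred on that list, Fas fell by 0.96 on the log2 scale (SE 0.29, limma adjusted p 0.0344), in a setting where 51.5% of all genes tested were called lower. The other 6 tested members lay between -0.30 (Ripk1) and 0.25 (Ripk3) with no call. Per 1000 units of summed microglia marker RPKM, Tnfrsf1a stood at 8.03 and 8.09 in AnnexinV-positive against 8.27 and 8.09 in AnnexinV-negative libraries. On this measure Fas stood at 0.279 and 0.212 in AnnexinV-positive against 0.551 and 0.403 in AnnexinV-negative libraries. Fadd stood at 0.143 and 0.162 in AnnexinV-positive against 0.317 and 0.218 in AnnexinV-negative libraries, and Tnfrsf10b at 0.0274 and 0.0338 in AnnexinV-positive against 0.101 and 0.117 in AnnexinV-negative libraries. Ripk1 stood at 1.29 and 1.12 in AnnexinV-positive against 1.38 and 1.56 in AnnexinV-negative libraries, and Mlkl at 0.102 and 0.0867 in AnnexinV-positive against 0.123 and 0.109 in AnnexinV-negative libraries. Members lower in both AnnexinV-positive libraries per microglia marker RNA were Fas, Fadd, Tnfrsf10b, Ripk1, Mlkl and, by less than 0.01 between its nearest libraries, Tnfrsf1a. The share of all genes that do so was not computed, so this is not read as particular to the members. Centred on the markers, the median log2 fold change of all genes tested was -0.76. Groups overlapped for Tnfrsf1b, Tnfrsf21 and Cflar, and Ripk3 was higher, at 0.661 and 0.752 in AnnexinV-positive against 0.631 and 0.517 in AnnexinV-negative libraries.

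Ratios between genes within a library do not depend on its scale. The 9 pairs were chosen for their roles with the values known, and how often gene pairs in general separate the groups was not computed. An exact permutation test of 2 libraries against 2 cannot give a two-sided p below 0.333, so no test is given. The pairs given first had groups that did not overlap. Fas over Tnfrsf1a was 0.0347 and 0.0263 in AnnexinV-positive against 0.0667 and 0.0498 in AnnexinV-negative libraries. Ripk3 over Ripk1 was 0.511 and 0.672 in AnnexinV-positive against 0.456 and 0.331 in AnnexinV-negative libraries, so the balance between the kinases lay further toward Ripk3 in both AnnexinV-positive libraries. Mlkl over Ripk3 was 0.154 and 0.115 in AnnexinV-positive against 0.195 and 0.210 in AnnexinV-negative libraries. Cflar over Fadd was 11.6 and 10.2 in AnnexinV-positive against 4.57 and 8.02 in AnnexinV-negative libraries, so both AnnexinV-positive libraries held more of the brake per adaptor RNA. Tnfaip3 over Ripk1 was 31.4 and 28.2 in AnnexinV-positive against 19.5 and 21.2 in AnnexinV-negative libraries. By contrast, Cflar over Casp8 overlapped between groups, at 0.484 and 0.513 in AnnexinV-positive and 0.511 and 0.574 in AnnexinV-negative libraries. Tnfrsf1b over Tnfrsf1a (1.07 and 0.856 in AnnexinV-positive against 0.790 and 0.919 in AnnexinV-negative libraries), Tnfrsf21 over Tnfrsf1a and Casp8 over Ripk3 overlapped as well.

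**Figure D3:**
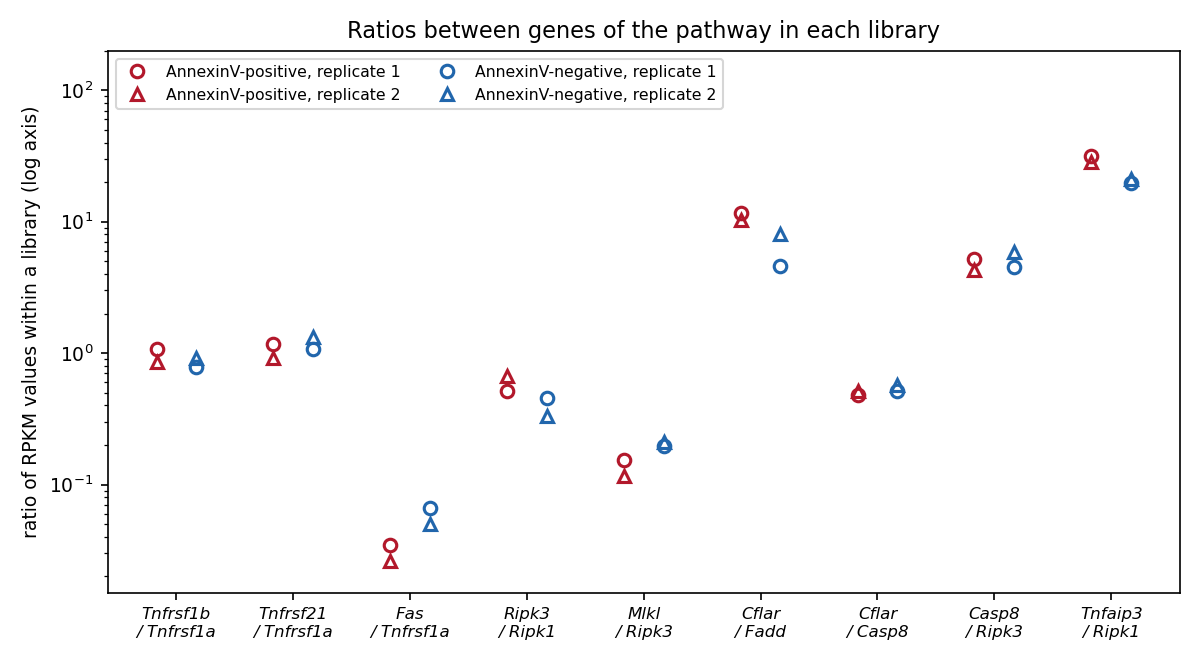
Ratio of 2 RPKM values within each library (log axis), with AnnexinV-positive libraries in red to the left of AnnexinV-negative libraries in blue; circles are replicate 1 and triangles replicate 2. Fas over Tnfrsf1a and Mlkl over Ripk3 are lower, and Ripk3 over Ripk1, Cflar over Fadd and Tnfaip3 over Ripk1 higher, in both AnnexinV-positive libraries.

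The ligands of these receptors were mostly scarce. Tnf was the exception, with an RPKM of 383 and 332 in AnnexinV-positive against 108 and 132 in AnnexinV-negative libraries (log2 fold change 1.58, SE 0.20, limma adjusted p 0.00259). Fasl, the ligand of Fas, stood at 0.0261 and 0.0960 in AnnexinV-positive against 0.387 and 0.282 in AnnexinV-negative libraries, from 5 and 16 reads in AnnexinV-positive and 90 and 53 in AnnexinV-negative libraries. It was below the minimum and not tested in the fit with a filter. The 8 markers of T or NK cells, which make Fas ligand, summed to an RPKM of 2.52 and 3.66 in AnnexinV-positive and 8.80 and 3.84 in AnnexinV-negative libraries, with none at 0. Among them Cd3e, Trac, Cd8a and Gzmb were lower in both AnnexinV-positive libraries, Klrb1c was higher, and Cd3g, Trbc2 and Nkg7 overlapped. A link between these cells and the Fasl values was not tested. Tnfsf10, which encodes TRAIL, had an RPKM of 0.814 and 0.668 in AnnexinV-positive and 0.667 and 0.762 in AnnexinV-negative libraries. Of the lymphotoxins, Lta was at 0.00731 and 0.0588 in AnnexinV-positive and 0.0120 and 0.0597 in AnnexinV-negative libraries, and Ltb at 0.498 and 0.671 in AnnexinV-positive and 0.657 and 0.377 in AnnexinV-negative libraries. The groups overlapped for Tnfsf10, Lta and Ltb.

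Around the members, 55 further genes of the pathway in 6 lists were measured, of which 44 were tested, with 31 higher and 1 lower in AnnexinV-positive cells and a median log2 fold change of 0.76, where 30.8% of all genes tested were called higher. These counts were 11 and 1 after median centring (10.4% of all genes tested higher) and 1 and 2 on the TPM scale (1.03% higher). With libraries centred on microglia markers they were 0 and 12, where 51.5% of all genes tested were called lower (limma; 18 of the 44 had an unadjusted p under 0.05 in either direction). With values as deposited and AnnexinV-positive replicate 1 or 2 left out, the median over the 44 was 0.75 or 0.76 on the log2 scale. Over all genes tested it was 0.48 or 0.41. Under a block on the replicate number, 18 of the 44 were called higher and 1 lower by limma. All genes tested gave 2443 higher and 957 lower of 10927 in that fit. On the deposited scale, Casp8, the initiator caspase, rose by 1.38 and Bid, which carries its signal to mitochondria, by 0.99 on the log2 scale. Of 15 tested adaptors and ubiquitin ligases of the receptor complexes, 9 rose, led by Birc3 (1.37), the ubiquitin ligase cIAP2, and Traf5 (1.34). Of 10 genes that restrain RIPK1 or edit its ubiquitin chains, 7 rose, among them Mapkapk2 (1.20), the kinase MK2, and Otulin (1.10), a deubiquitinase for linear chains. Tnfaip3, the ubiquitin editor A20, had an RPKM of 231 and 177 in AnnexinV-positive against 59.5 and 89.3 in AnnexinV-negative libraries.

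On the same deposited scale, 9 of 12 genes that act on necroptosis by other routes rose, where 30.8% of all genes tested were called higher. The list mixes genes that feed or aid necroptosis with genes that restrain it. Among those that rose were Ticam1 (1.40), the TRIF adaptor of Toll-like receptors, and Tmem173 (1.34), which encodes STING. Zbp1, a sensor that engages RIPK3, had an RPKM of 7.77 and 10.3 in AnnexinV-positive against 4.35 and 3.88 in AnnexinV-negative libraries. Among the other death domain and decoy receptors, 2 of 8 were tested: Eda2r, a receptor for an ectodysplasin, fell by 2.64 (limma adjusted p 0.00305), and Tnfrsf23, a decoy receptor for TRAIL in mice, rose by 0.90 (limma adjusted p 0.0403) on the log2 scale.

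**Figure D4:**
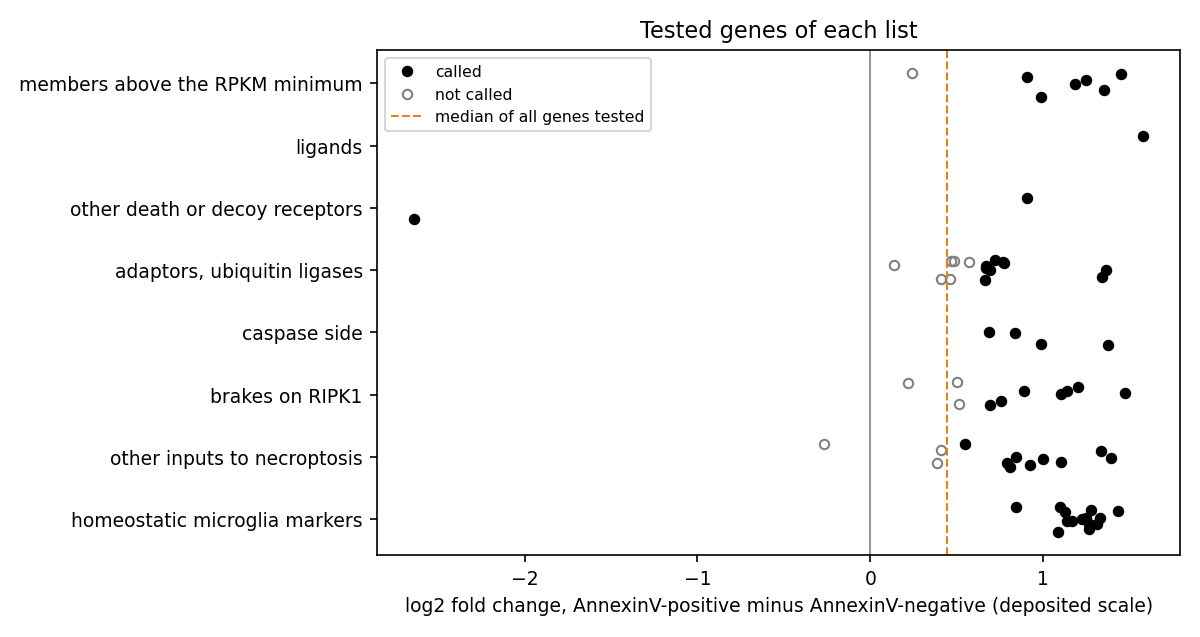
Log2 fold change (AnnexinV-positive minus AnnexinV-negative, deposited scale) of each tested gene, by list; filled points passed the limma test, open points did not, and the dashed line marks the median of all genes tested, 0.45. Most pathway genes lie to the right of that line, within or below the range of the homeostatic microglia markers, 0.85 to 1.43; Eda2r lies alone at -2.64.

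Genes with the most similar pattern were sought for the tested members at the ends of the range, by Euclidean distance over the 4 libraries of log2 values centred per gene. For Ripk3 they were Spi1 (distance 0.0539), the myeloid transcription factor PU.1, Casp1 (0.0575), the inflammatory caspase, and H2-DMb1 (0.0581), a chaperone of MHC class II loading. Ripk3 had 18 genes within a distance of 0.1. For Fas they were Pink1 (0.0210), Dnajc10 (0.0403) and Xrcc5 (0.0557), among 12 genes within that distance. With 4 libraries many genes share a pattern, and likeness is given as a description only.

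Promoter windows are shown for Ripk3, Tnfrsf1b and Cflar, which were called higher, and for Fas, which was not, to set the sequences beside these differences. RefSeq windows (GRCm38.p6) were matched for 9 of the 10 members, 10 windows in all, and the 250 bases before each annotated start were searched on both strands. Capitals mark matches to the letters searched.
Ripk3, chr14:55788858-55789107, minus strand: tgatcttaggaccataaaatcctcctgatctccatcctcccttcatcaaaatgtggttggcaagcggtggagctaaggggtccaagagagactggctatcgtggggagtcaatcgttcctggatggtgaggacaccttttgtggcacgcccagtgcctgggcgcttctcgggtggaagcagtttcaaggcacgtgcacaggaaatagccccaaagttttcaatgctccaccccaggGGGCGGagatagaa
Tnfrsf1b, chr4:145246871-145247120, minus strand: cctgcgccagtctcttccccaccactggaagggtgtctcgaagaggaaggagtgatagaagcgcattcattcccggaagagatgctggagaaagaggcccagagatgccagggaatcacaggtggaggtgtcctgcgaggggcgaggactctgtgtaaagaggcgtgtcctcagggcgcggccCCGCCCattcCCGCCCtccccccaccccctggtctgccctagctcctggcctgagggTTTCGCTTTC
Cflar, chr1:58711241-58711490, plus strand: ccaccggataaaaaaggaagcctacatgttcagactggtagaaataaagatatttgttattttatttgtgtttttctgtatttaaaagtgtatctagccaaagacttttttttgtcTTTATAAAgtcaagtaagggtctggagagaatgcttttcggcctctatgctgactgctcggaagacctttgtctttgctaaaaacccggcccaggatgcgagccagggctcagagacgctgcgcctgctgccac
Fas, chr19:34290409-34290658, plus strand: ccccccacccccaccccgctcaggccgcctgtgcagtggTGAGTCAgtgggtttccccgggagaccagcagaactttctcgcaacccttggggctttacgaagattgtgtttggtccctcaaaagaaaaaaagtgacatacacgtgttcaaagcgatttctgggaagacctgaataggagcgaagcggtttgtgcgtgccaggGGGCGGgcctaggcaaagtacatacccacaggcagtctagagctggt

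The GC box GGGCGG, which SP family factors can bind, was in 7 of the 10 member windows, against 32.7% of 32851 windows of all genes. Ripk1 has 2 of these windows and both hold it, so by gene the GC box was in 6 of the 9 members. It is marked once in Ripk3 and Fas and in a pair of places, as CCGCCC, in Tnfrsf1b, and it is not in the Cflar window. The core of the interferon response element was in 1 window, that of Tnfrsf1b, ending at the annotated start, against 2.98% of all windows. TGANTCA, the AP-1 site, was in 1 window, that of Fas, against 6.75%, and TATAAA was in 1 window, that of Cflar, where matches on both strands overlap, against 12.4%. The kappaB consensus and the PU.1 letters GAGGAAGT were in 0 of 10 windows, against 7.25% and 2.44%. These are letter matches in a short window and not evidence of binding.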

How the data were processed

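Bulk RNA-seq values of 4 libraries were used, grouped by their titles. Per the labels' protocols, tissue was dissociated enzymatically and libraries were made with the Illumina TruSeq v2 chemistry, which loses strand. GSNAP and mm10 are named as aligner and build in the submitters' processing notes; a version, counter, annotation or filter is not given there. The deposited values carry no unit and were read as RPKM scaled by the authors per library: 79.6% to 83.6% of each library's low values came within 0.01 of whole reads, given exonic lengths from GENCODE vM21 (GRCm38). For 8 of the 10 members the recovered reads were not whole, so their read numbers are approximate; Fadd and Tnfrsf1b were whole.

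Symbols came from GENCODE vM21, which matched 52403 of 52636 genes. Values were taken as log2(RPKM + 0.1) for genes that reached an RPKM of 1 in 2 libraries, and limma 3.58.1 (R 4.3.3, intensity trend) gave AnnexinV-positive minus AnnexinV-negative with Benjamini-Hochberg adjustment over all 10927 genes, called at 0.05. Fold changes on this scale understate low genes. Only the limma fit was tested on simulated log values, with no scale difference between libraries. The scalings, read recovery, ratios and promoter search were not tested in this way.

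Members, lists and tests were chosen with earlier results of these data known. Named genes are all members and ligands, the 2 tested genes of smallest p in each other list, called genes of lists with 5 or fewer calls (some are not reported here), the marker of smallest p for microglia and for oligodendrocytes, and the 3 genes most like the tested members of highest and lowest fold change. Tnfaip3, Zbp1, Serpinb6a, Gm17084 and Faddos were named with their values known. Alternatives were other pseudocounts, no filter, other scalings, no trend, a replicate block, and leaving out each library.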

Additional observations from a re-analysis of the deposited data

How the results depend on the processing

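With 2 libraries a group, the deposited scale and single libraries limit the calls. The 6 of 7 members called remained 6 with a pseudocount of 0.01 or 1, without the trend and under the replicate block; they were 4 of 10 with no filter on low values, 4 with median centring, 0 on the TPM scale, 1 (Fas, lower) centred on the microglia markers and 1 with total reads made equal, an alternative added after the data were seen. Leaving out a library gave 4 to 6 members, 13 to 28 of the 44 pathway genes and 2084 to 4416 of all genes. All genes called, 4376 in all, were 2317 with median centring, 2204 on the TPM scale and 1914 with total reads equal. With the replicate block they were 3400. The 32 pathway genes called were 19 with no filter, 12 with median centring, 3 on the TPM scale, 12 centred on the microglia markers, 6 with total reads equal and 19 with the replicate block. Log2 fold changes turned negative for Fas with median centring (-0.072), on the TPM scale (-0.51), with total reads equal (-0.39) and centred on the microglia markers (-0.96), where Tnfrsf1a (-0.014), Tnfrsf21 (-0.22) and Ripk1 (-0.30) also turned. The cause was not tested, apart from the scalings' own construction.

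The replicate numbers share only a label, and the block changed no call of a member. Deviations of same-numbered libraries correlated at -0.21 across 10927 genes, and with the numbers crossed, added after seeing the data, 6 members, 38 pathway genes and 6027 of all genes were called. Depth limits Tnfrsf10b and Mlkl, whose values rest on 66 to 166 reads a library.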

Other observations

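Receptors of the same superfamily that lay below the RPKM minimum were not tested in the fit with a filter, and several stood lower in dying cells. Ngfr, the death domain receptor p75 for neurotrophins, was listed at 0 in both AnnexinV-positive libraries, where 3 reads would give an RPKM of 0.00880 and 0.0101, against 0.469 and 0.290 (194 and 97 reads) in AnnexinV-negative libraries. Edar, the ectodysplasin receptor, stood at an RPKM of 0.0222 and 0.0639 in AnnexinV-positive against 0.144 and 0.349 in AnnexinV-negative libraries. Tnfrsf22, a decoy receptor for TRAIL in mice, stood at 0.319 and 0.320 in AnnexinV-positive against 0.551 and 0.639 in AnnexinV-negative libraries. Tnfrsf11b, the decoy receptor osteoprotegerin, stood at 0.144 and 0.120 in AnnexinV-positive against 0.236 and 0.264 in AnnexinV-negative libraries. In each of these genes both AnnexinV-positive libraries lay below both AnnexinV-negative libraries. How often other genes below the minimum do so was not computed. The limma fit without a filter called 2489 of 44826 genes lower and 1865 higher. Tnfrsf26 (0.255 and 0.372 in AnnexinV-positive against 0.251 and 0.160 in AnnexinV-negative libraries) lay higher in both AnnexinV-positive libraries, while Tnfrsf25, the death receptor DR3, overlapped between groups (0.0638 and 0.0488 in AnnexinV-positive against 0.0875 and 0.0434 in AnnexinV-negative libraries). All 6 were chosen for description after their values were seen.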
